A study of Mus musculus with 6 samples.

Results

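The apolipoprotein L genes are a family of mouse genes that lie mostly in a single cluster on chromosome 15, and 9 of them were followed here through the differentiation of mouse erythroleukemia (MEL) cells. The members were Apol6, Apol7c, Apol8, Apol9a, Apol9b, Apol10a, Apol10b, Apol11a and Apol11b, out of 23896 gene symbols with a listed transcript. Each gene was represented by the RefSeq transcript with the highest mean count over all libraries, and a gene with at most 3 counts in every library was taken as not detected, so the detected members were selected on their counts. By that rule 5 members were detected (Apol8, Apol10a, Apol10b, Apol11a and Apol11b) and 4 were not (Apol6, Apol7c, Apol9a and Apol9b). The nearest member inside the limit was Apol10b, with 2 to 26 counts per library, and the nearest outside was Apol9a, whose highest library held 2 counts. Because the limit uses the same counts that are compared between days, and because the family was picked with earlier results of these data known, the number of members that changed is a description and supports nothing by itself.

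MEL cells are an established mouse erythroleukemia line blocked at an early erythroid stage, and dimethyl sulfoxide (DMSO) releases that block so that the cells make hemoglobin. Polyadenylated RNA was sequenced from uninduced cells (day 0) and from cells grown for 2 or 4 days in 2% DMSO, with 2 replicates per day and 6 libraries in all. All cells were the same line in suspension culture in minimal essential medium with fetal bovine serum, and no untreated cells of day 2 or day 4 were part of these samples, so the effect of DMSO and that of time in culture cannot be told apart. The study's methods describe the replicates as biological, and the p-values rest on 2 of them per day.

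The libraries held between 35294930 and 53899476 counts on transcripts. The 11 erythroid markers, among them the globins Hba-a1 and Hbb-bs and the heme synthesis enzyme Alas2, summed to 1253 to 1344 CPM (counts scaled to library size) on day 0, 4729 to 5594 on day 2 and 18275 to 20474 on day 4. These 3 named genes had the most counts of the 11 and weigh most in the sum. By edgeR 10 of the 11 were higher and 1 was lower on day 4 than on day 0, beside 35.5% and 36.4% of all genes. In RNA from whole cultures, fewer cells that express a gene and less of its RNA per cell cannot be told apart.

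The family is named for human apolipoprotein L1, which travels on high-density lipoprotein in serum and forms the trypanosome-killing factor of human blood. Most other family members lack a secretion signal and stay inside the cell, where they associate with lipids and membranes. Many are induced by interferon: signalling through the interferon receptors activates STAT and IRF transcription factors, which bind an interferon-stimulated response element (ISRE) or a gamma-activated site (GAS) near the start of their target genes. Mouse Apol9a and Apol9b are known interferon-stimulated genes, mouse Apol7c acts on phagosome membranes in dendritic cells, and human APOL6 carries a BH3-like domain and has been linked to cell death.

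The stretches before the start sites are shown first, because among the 3 members that rose most Apol11a and Apol11b have the same one and Apol10a a similar one. Each sequence below is the 250 bases upstream of the gene's start in the RefSeq promoter table (build GRCm38.p6), read on the strand of the gene. Capitals mark the letters of an ISRE (GAAA, any 2 bases, then GAAA) and the GATA letters AGATAA or AGATAG or TGATAA or TGATAG, each on either strand. GATA1, which binds GATA letters, is the central transcription factor of erythroid cells. The sequence of Apol11b is chr15:77643287-77643536 (minus strand), that of Apol10a chr15:77476797-77477046 (plus strand), that of Apol10b chr15:77596126-77596375 (minus strand) and that of Apol8 chr15:77757011-77757260 (minus strand).
Apol11b: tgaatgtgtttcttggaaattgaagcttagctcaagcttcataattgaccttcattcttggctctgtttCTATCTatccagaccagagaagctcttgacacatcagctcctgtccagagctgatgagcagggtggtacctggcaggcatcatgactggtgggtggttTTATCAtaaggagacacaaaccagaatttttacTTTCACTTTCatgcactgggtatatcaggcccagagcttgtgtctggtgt
Apol10a: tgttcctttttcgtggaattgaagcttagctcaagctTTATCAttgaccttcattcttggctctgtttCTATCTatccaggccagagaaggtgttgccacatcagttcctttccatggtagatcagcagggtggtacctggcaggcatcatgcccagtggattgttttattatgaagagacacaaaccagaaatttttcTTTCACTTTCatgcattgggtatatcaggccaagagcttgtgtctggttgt
Apol10b: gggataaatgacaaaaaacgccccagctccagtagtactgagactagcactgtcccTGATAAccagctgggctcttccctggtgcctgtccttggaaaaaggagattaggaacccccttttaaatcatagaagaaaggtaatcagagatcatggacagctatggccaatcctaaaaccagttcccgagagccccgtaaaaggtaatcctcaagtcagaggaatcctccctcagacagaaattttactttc
Apol8: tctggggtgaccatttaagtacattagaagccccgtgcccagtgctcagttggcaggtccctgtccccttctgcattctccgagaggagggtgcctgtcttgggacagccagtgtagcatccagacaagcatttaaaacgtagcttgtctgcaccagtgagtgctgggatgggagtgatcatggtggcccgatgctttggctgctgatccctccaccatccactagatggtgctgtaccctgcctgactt

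The Apol11a sequence (chr15:77508019-77508268, plus strand) was identical to that of Apol11b at all 250 bases. Over the longer table entry of 300 bases, the Apol11b and Apol11a windows differed by G251A and T252C, counted from 1 at the 5′ end of the window with the Apol11b base first, which are the first 2 bases after the start. The Apol10a sequence matched that of Apol11b at 218 of 251 aligned columns (86.9%), whereas those of Apol10b and Apol8 matched it at 49.3% and 52.3%. By RefSeq gene coordinates, Apol8, Apol10a, Apol10b and Apol11a begin further upstream than the start used here. These windows therefore need not lie at the start of the counted transcript. By those coordinates the ISRE described next lies inside the gene in Apol10a, Apol10b and Apol11a. By GENCODE the genes begin beside the windows, at 77477047 (Apol10a), 77508271 (Apol11a), 77596125 (Apol10b) and 77757003 (Apol8). The ISREs of Apol10a and Apol11a then lie before the gene, and that of Apol10b spans its start.

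In the 300-base windows, which include 50 bases after the start, the ISRE letters were found in 7 of the 8 members with an entry, against 3.44% of 32851 mouse promoters. Apol8 was the exception. Similar windows, such as those of Apol11a and Apol11b, are not separate observations in this count or in those of other letters below. The share over all promoters counts promoter entries, while members are counted as genes. The ISRE began 50 bases before the start of Apol11a and Apol11b and 51 bases before that of Apol10a. In Apol10b it began 4 bases before the start, runs past it and is therefore in small letters above. The not detected members Apol7c, Apol9a and Apol9b each carried a pair of overlapping ISREs, of which the first is given here to show that they have the element without detectable RNA.
Apol10b: TTTCATTTTC
Apol7c: TTTCTCTTTC
Apol9a: TTTCAGTTTC
Apol9b: TTTCAGTTTC

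The GATA letters were present in 4 of the 8 members, namely Apol10a, Apol10b, Apol11a and Apol11b, against 29.8% of all promoters of that length. The match to TGATAA (read as TTATCA) began 213 bases before the start of Apol10a but 83 bases before that of Apol11a and Apol11b. A GAS (TTCNNNGAA, which reads the same on both strands) was present in 3, Apol10a, Apol11a and Apol11b, against 8.30% of all. The letters CCNCNCCC, the kind bound by the erythroid factor KLF1, were present in Apol9a and Apol9b, against 49.5% of all. The Apol8 window held none of these 4 patterns. A match of letters is not a site, and binding was not measured in these samples.

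Part of the genes without detectable RNA lay among the detected ones. By RefSeq coordinates on GRCm38, the 13 Apol genes of chromosome 15 span 712 kb, from Apol6 at 77045050 to the end of Apol8 at 77757062. Apol10a (77476953 to 77491069) and Apol11a (77508129 to 77517874) lie on the plus strand. Apol10b (77584154 to 77598542), Apol11b (77633951 to 77643286) and Apol8 (77745109 to 77757062) lie on the minus strand. Apol7c (77524852 to 77533335), without a count in any library, sits between Apol11a and Apol10b.

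**Figure D1:**
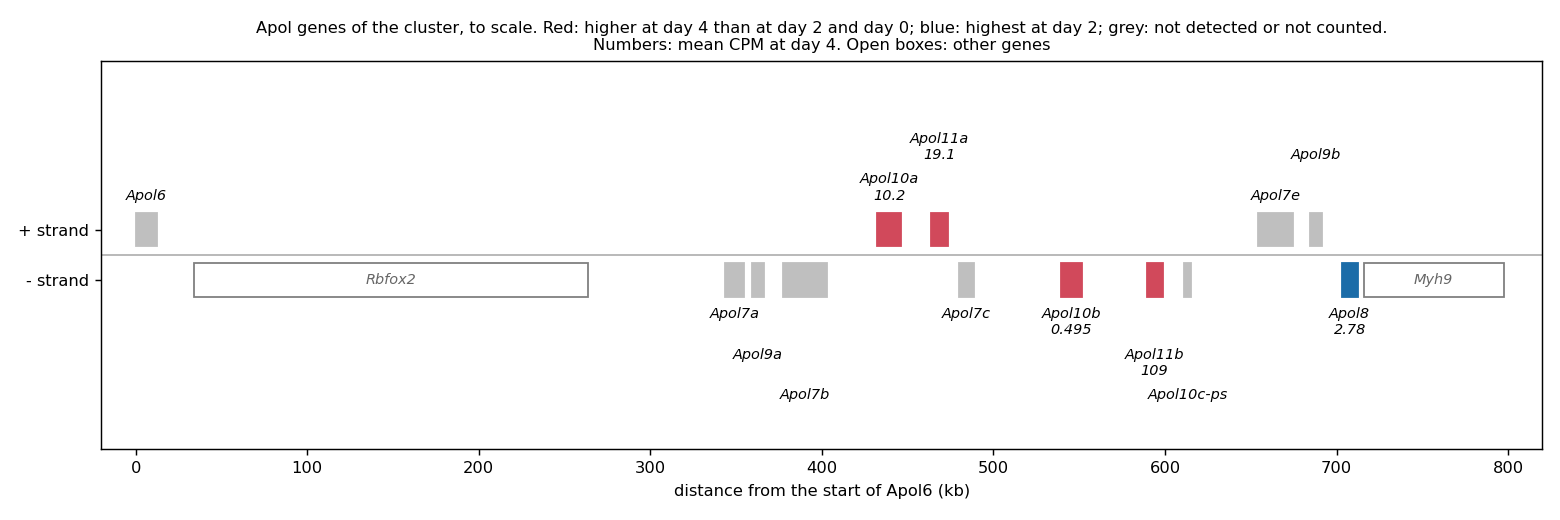
Map of the Apol genes of chromosome 15, with distance from the start of Apol6 in kb on the horizontal axis and the strand on the vertical axis. Red and blue boxes are the 5 detected genes with their mean CPM on day 4, from 109 for Apol11b to 0.495 for Apol10b, and grey boxes are genes that were not detected or not counted. Apol7c, Apol10c-ps, Apol7e and Apol9b lie between detected genes, and Apol6, Apol7a, Apol9a and Apol7b lie before them.

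Apol11b (NM_001143686) was the most abundant member of the family in induced cells. Its counts were 31 and 22 on day 0, 936 and 1713 on day 2, and 4621 and 4052 on day 4. Scaled to library size these were 0.760 and 0.443 CPM, then 22.4 and 34.9 CPM, then 128 and 89.5 CPM. Each day lay above the one before it without overlap. The means were 0.602 ± 0.224, 28.6 ± 8.80 and 109 ± 27.2 CPM (SD, n = 2). The log2 fold change was 5.60 (SE 0.32) from day 0 to day 2 with an edgeR adjusted p of 2.74e-07, and a further 1.92 (SE 0.22) from day 2 to day 4 with an edgeR adjusted p of 0.000268. Between day 0 and day 4 it was 7.52 (SE 0.32, edgeR adjusted p = 1.89e-08), the ninth highest fitted change of 18351 tested transcripts (rank 9). The ratio of its pooled, library-scaled counts was 182, with a 95% exact counting interval of 139 to 243, which covers counting error only.

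Apol11a (NM_001177533), the member with the identical upstream stretch, followed the same course at a lower level. It had 6 counts in each day 0 library, 170 and 328 on day 2, and 893 and 611 on day 4. The means were 0.134 ± 0.0185, 5.37 ± 1.84 and 19.1 ± 7.95 CPM (SD, n = 2), again with no overlap between days. Its log2 fold change was 5.32 (SE 0.49, edgeR adjusted p = 5.53e-06) over the first step and 1.82 (SE 0.28, edgeR adjusted p = 0.0012) over the second. Day 4 stood 7.14 (SE 0.46) above day 0 on the log2 scale with an edgeR adjusted p of 2.14e-07, and the ratio of pooled counts was 139 (95% exact counting interval 79.5 to 270.2).

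Apol10a (NM_177744) was close to absent before induction and clearly present after it. Day 0 held 2 counts in one library and 0 in the other, both at or under the floor of 3 counts, day 2 held 99 and 166, and day 4 held 456 and 354. In CPM, day 2 averaged 2.87 ± 0.712 and day 4 averaged 10.2 ± 3.40 (SD, n = 2). The ratio of pooled counts was 132 from day 0 to day 2 (95% exact counting interval 36.1 to 1094) and 450 from day 0 to day 4 (124 to 3724). With 2 counts on day 0 these ratios are wide. The fitted log2 changes were 6.85 for day 2 (SE 0.62, edgeR adjusted p = 5.15e-06) and 8.67 for day 4 (SE 0.54, edgeR adjusted p = 1.93e-07). Both depend on the prior count of the fit, and their SE, derived from the test statistic, is narrower than the counting intervals. The step from day 2 to day 4, where both days were well counted, was 1.82 (SE 0.27, edgeR adjusted p = 0.00102).

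Apol10b (NM_177820) stayed rare throughout. Its counts were 2 and 3 on day 0, 5 and 6 on day 2, and 15 and 26 on day 4, so the days did not overlap although every library was under 30 counts. Only day 4 brought it past the filter on low counts (at least 10 counts in 2 libraries), so that it had to be higher there to be tested. Over the first 2 days a log2 fold change of 1.09 (SE 0.67, edgeR adjusted p = 0.175) did not pass the test, with a ratio of pooled counts of 2.19 and a 95% exact counting interval of 0.701 to 8.04. It rose from day 2 to day 4 by 2.02 (SE 0.44, edgeR adjusted p = 0.00604), a call that was lost without either day 2 library or without day 4 replicate 2 (edgeR adjusted p = 0.0867, 0.0739 and 0.0844). Day 4 against day 0 gave 3.12 (SE 0.51, edgeR adjusted p = 0.000217), with a ratio of 9.12 (95% exact counting interval 3.60 to 29.6).

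Apol8 (NM_001081970) took another course, with its peak on day 2. It held 35 and 38 counts on day 0, 211 and 296 on day 2, and 107 and 117 on day 4. The CPM values were 0.858 and 0.766, then 5.05 and 6.02, then 2.96 and 2.59, so that day 4 lay between the other days and overlapped neither. It rose by a log2 fold change of 2.77 (SE 0.22, edgeR adjusted p = 1.92e-06) up to day 2. It then fell by 1.00 (SE 0.19, edgeR adjusted p = 0.00318), a call that was lost without day 2 replicate 2 (log2 fold change -0.87, edgeR adjusted p = 0.0538). Day 4 remained above day 0 by 1.77 (SE 0.23, edgeR adjusted p = 3.16e-05). Of all tested transcripts, 2.20% shared this sequence of a rise by day 2 and a fall from day 2 to day 4.

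**Figure D2:**
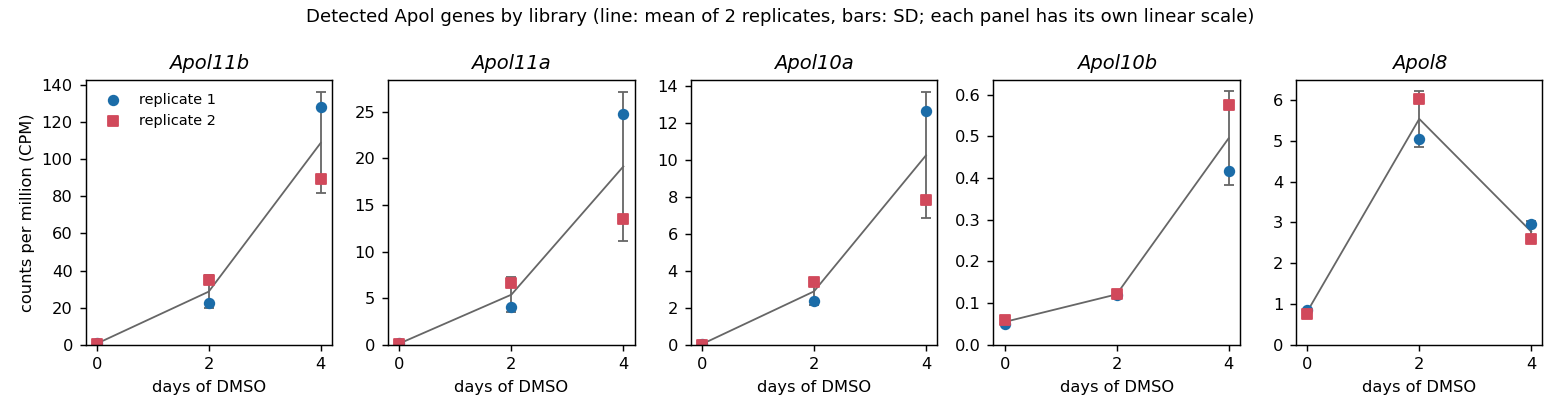
Level of each detected Apol gene in CPM (vertical axis, a separate linear scale per gene) against days of DMSO, with a point per replicate, a line through the means and SD bars (n = 2). Apol11b, Apol11a, Apol10a and Apol10b are highest on day 4, and Apol8 is highest on day 2 at 5.05 and 6.02 CPM.

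Counted over the family, 5 of the 9 members passed the filter on low counts and were tested. At an edgeR adjusted p under 0.05, 4 of these were higher on day 2 than on day 0, beside 31.9% of all tested transcripts. From day 2 to day 4, 4 members were higher, against 14.6% of all transcripts, and 1 was lower, against 16.4%. Between day 0 and day 4 all 5 detected members were higher, against 36.2% of all transcripts. Without a scaling factor the members' counts were the same, while 7593 transcripts were higher and 4187 lower on day 2 than on day 0, in place of 5847 and 5792, and 1880 were higher and 3787 lower on day 4 than on day 2, in place of 2682 and 3002. Higher at both steps were Apol10a, Apol11a and Apol11b, a course shown by 8.68% of all transcripts. Apol10a and Apol11a passed the filter on low counts through days 2 and 4, and Apol8 and Apol11b passed it on every day.

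The steps were unequal for most of these genes. The second change minus the first was -3.68 on the log2 scale for Apol11b (edgeR adjusted p = 0.000307), -3.50 for Apol11a (0.00436), -5.03 for Apol10a (0.00246, from a day 0 at the floor) and -3.77 for Apol8 (5.59e-05). These are log2 ratios: in CPM the mean of Apol11b gained more after day 2 (28.6 to 109) than before it (0.602 to 28.6). Of all transcripts, 16.9% passed the test with a second log2 change below the first (3108 transcripts, and 5310 without a scaling factor). For Apol10b the difference was 0.93 (edgeR adjusted p = 0.537), and this p does not show that its steps were equal.

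The order of the levels differed between the days. Per kilobase of transcript, Apol8 (0.301 ± 0.0242 CPM per kb) and Apol11b (0.292 ± 0.109) led on day 0, and their libraries overlapped (SD, n = 2). On day 4 the order was Apol11b at 52.8 ± 13.2, Apol11a at 10.3 ± 4.26, Apol10a at 3.37 ± 1.12, Apol8 at 1.03 ± 0.0994 and Apol10b at 0.213 ± 0.0483 CPM per kb, with no overlap between neighbours. On day 2 the order was the same except that Apol8, at 2.05 ± 0.255, stood above Apol10a at 0.948 ± 0.235 and overlapped Apol11a at 2.88 ± 0.988. Of all counts on the 9 members, Apol11b took 39.7% and 31.4% on day 0 and 75.8% and 78.5% on day 4, while Apol8 went from 44.9% and 54.3% to 1.76% and 2.27%. Even so the family remained a small part of the RNA, at 0.0173% and 0.0113% of all counts on day 4.

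The 4 members without detectable RNA were at or near 0 on every day. Apol6 (NM_001163621) and Apol7c (NM_175391) had 0 counts in all 6 libraries, where 3 counts would be 0.0604 to 0.0831 CPM. The interferon-stimulated Apol9a (NM_001162883) had at most 2 counts in a library and 6 in all, and Apol9b (NM_001168660) had 1 count in all. Outside the 9 members, Apol7a and the noncoding Apol7d had 0 counts, Apol7b had 3 in all and Apol7e had 1. The related gene Apold1 on chromosome 6, known from endothelial cells, had 9 to 16 counts in every library.

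Reads could be shared between the similar members, which bears on the parallel rise of Apol11a, Apol11b and Apol10a and on the low counts of Apol10b. When each transcript was cut into 50-base windows, 45.95% of the Apol11a windows and 41.4% of the Apol11b windows had a match in the other with at most 2 mismatches, the number the study's aligner allowed. With 100-base windows the shares were 19.4% and 17.5%. Of the Apol11b windows of 50 bases, 18.4% matched Apol10a and 11.4% matched Apol10b. In the other direction, 12.4% of the Apol10a windows and 10.1% of the Apol10b windows matched Apol11b. Apol10a was matched by 23.6% of the Apol11a windows and 13.9% of the Apol10b windows. Of the 30-base words of Apol10a, 15.7% occurred in the pseudogene Apol10c-ps, which had no listed transcript, and 8.8% in Apol11b. Apol8 was the opposite case, since 99.7% of its 30-base words occurred in no transcript of another annotated gene. This share was 65.2% for Apol11b, 63.9% for Apol11a, 71.1% for Apol10a and 88.0% for Apol10b.

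**Figure D3:**
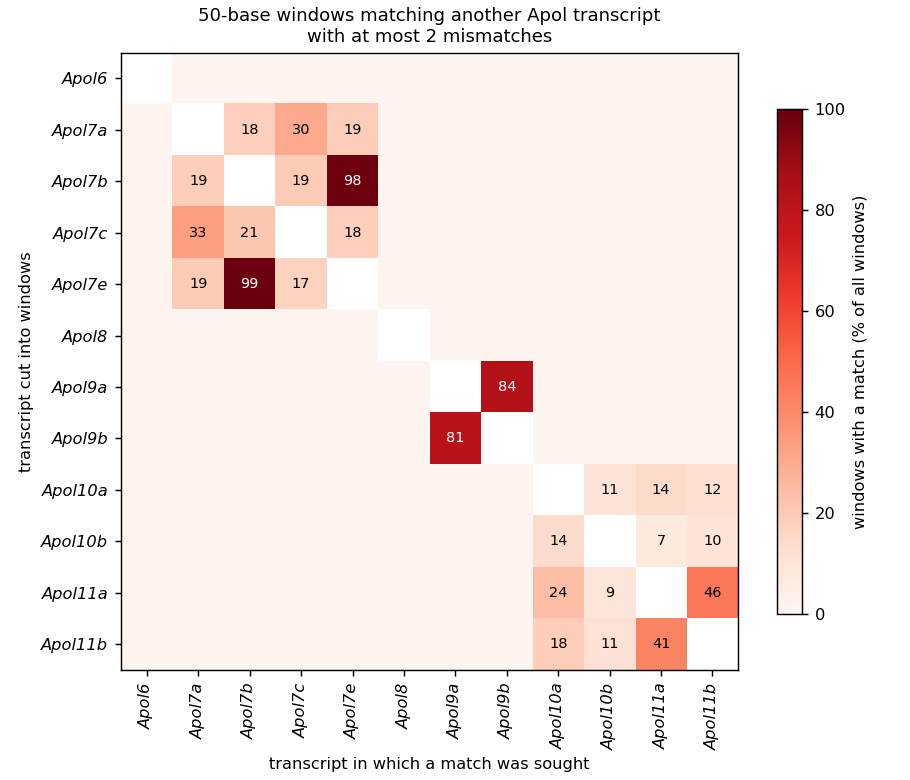
Share of the 50-base windows of an Apol transcript (rows) that match another Apol transcript (columns) with at most 2 mismatches, in percent of all windows. Apol10a, Apol10b, Apol11a and Apol11b form a block with up to 46% between Apol11a and Apol11b, and Apol6 and Apol8 stand alone.

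The counts do not separate such reads. The tally of reads set aside for mapping to several places was 0 in every library, and the near-identical globin genes Hba-a1 and Hba-a2 held 1113635 and 1113578 counts over all libraries, the counts that arise when a read that fits 2 copies is counted on both. For every 100 counts of Apol11b, Apol11a held 18.2 and 19.1 on day 2 and 19.3 and 15.1 on day 4, and the 95% exact counting intervals of the day 4 libraries, 18.0 to 20.8 and 13.8 to 16.4, did not overlap. Apol10a held 10.6, 9.69, 9.87 and 8.74 per 100 of Apol11b in these libraries, with overlapping intervals. How many of the Apol11a, Apol10a and Apol10b counts came from reads of Apol11b was not tested, since only counts per transcript were at hand. For Apol10b this bears on all of its 41 counts on day 4, beside 8673 of Apol11b. Apol11a, Apol10a and Apol10b have words found in no other gene over most of their length, but the counts are not split by position.

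Genes that interferon induces in many cells moved in both directions. Of 60 such genes 49 were tested, and by edgeR 31 were higher and 7 lower on day 4 than on day 0, with a median log2 change of 1.03 against -0.02 over all genes beside 35.5% and 36.4% of all genes called higher and lower. Oas1b, a member of the oligoadenylate synthetase family of antiviral proteins, rose from 1.17 ± 0.00569 to 8.56 ± 2.15 CPM, and Xaf1 rose from 0.792 ± 0.219 to 5.29 ± 0.931 CPM (SD, n = 2). In the other direction, Ifit2, an RNA-binding antiviral protein, fell from 8.45 ± 0.271 to 0.811 ± 0.00996 CPM and Oasl1 fell from 66.3 ± 8.67 to 8.01 ± 0.0762 CPM. Over the first step 31 genes were higher and 5 lower (median 0.92), beside 31.0% and 31.5% of all genes. Over the second step 9 were higher and 6 lower (median 0.14), beside 14.0% and 16.2% of all genes.

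Of the receptors, kinases and transcription factors of the interferon pathway, 15 of 20 tested were higher on day 4 than on day 0 and 2 were lower, beside 35.5% and 36.4% of all genes, with a median log2 change of 0.96 against -0.02 over all genes. Irf7, the transcription factor that drives type I interferon genes, rose from 0.672 ± 0.124 CPM on day 0 to 9.39 ± 1.72 on day 2 and stood at 13.4 ± 5.40 on day 4 (SD, n = 2). Its log2 change was 3.81 (SE 0.32, edgeR adjusted p = 3.39e-06) up to day 2, and the later 0.51 (SE 0.24, edgeR adjusted p = 0.133) did not pass the test. Socs3, a feedback inhibitor of cytokine receptors, rose at both steps, from 1.20 ± 0.209 to 5.93 ± 0.860 and 12.7 ± 2.55 CPM. The falls in this list were small, -0.34 for Il10rb (edgeR adjusted p = 0.027) and -0.32 for Ptpn2 (edgeR adjusted p = 0.0206).

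**Figure D4:**
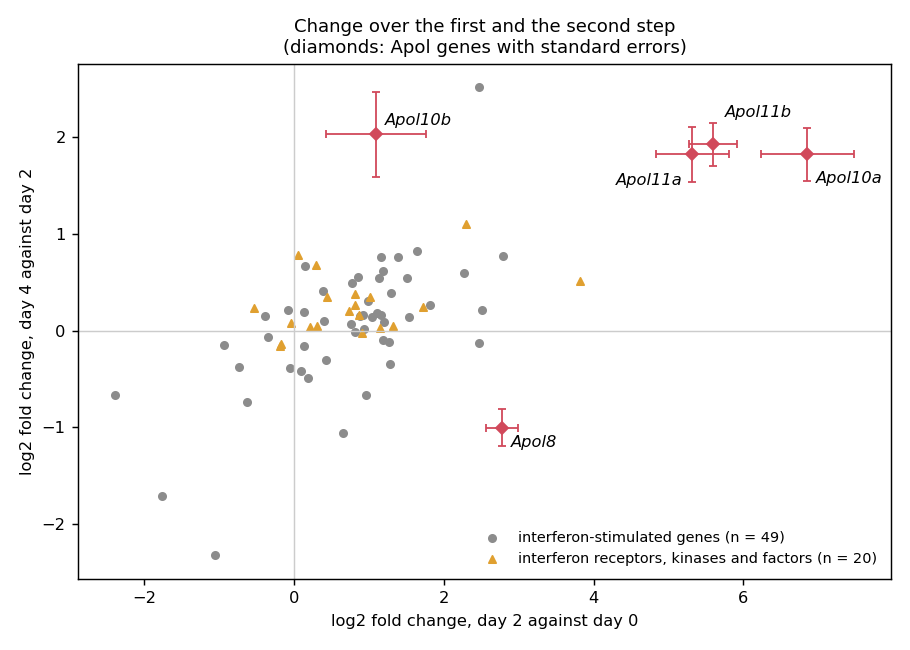
Log2 fold change from day 2 to day 4 (vertical axis) against that from day 0 to day 2 (horizontal axis). Diamonds are the 5 detected Apol genes with standard errors derived from the test statistic. Circles are the 49 tested interferon-stimulated genes and triangles the 20 tested receptors, kinases and factors of that pathway. Apol11b (5.60 and 1.92), Apol11a and Apol10a lie to the right of all circles and triangles.

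Genes around the cluster had log2 changes between -1.13 and 0.89 from day 0 to day 4. Of 11 protein-coding genes between or within 200 kb of the outermost Apol genes 10 were tested, and on day 4 against day 0 1 was higher and 5 were lower by edgeR, beside 35.5% and 36.4% of all genes, with a median log2 change of -0.42 against -0.02 over all genes. In order of position, the first 5 of those called were Zfp7 (-0.53), Commd5 (-1.13), the ribosomal protein gene Rpl8 (-0.56), Rbfox2 (0.89) and the nonmuscle myosin gene Myh9 (-0.88). Rbfox2, a splicing regulator that lies between Apol6 and the other Apol genes, went from 7.30 ± 0.493 to 13.5 ± 0.984 CPM (SD, n = 2). Myh9, next to Apol8, went from 756 ± 295 to 411 ± 18.0 CPM. From day 2 to day 4 the log2 changes of these 10 genes lay between -0.34 and 0.09.

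The courses most like those of the members were ranked by the root mean square distance between log2 CPM profiles, each centred on its mean, over the 6 libraries and among 10453 to 10454 genes whose log2 CPM averaged 1 or more. Apol11b lay 0.14 from Apol10a, and both lay 0.37 from Apol11a, distances that include any shared reads. A prior count of 2 was added before the logarithm and sets the day 0 values of Apol10a, so its distances cannot be read as equal fold changes (the fitted log2 changes from day 0 to day 4 were 8.67 and 7.52 for Apol10a and Apol11b). The third neighbour was a globin gene for Apol10a (Hbb-b1, 0.47) and for Apol11a (Hba-a2, 0.41), and Ripor3 for Apol11b (0.43). Ripor3 went from 0.187 ± 0.0211 to 9.36 ± 1.10 and 35.2 ± 9.89 CPM (SD, n = 2). Nearest to Apol8 were Adamts17 (0.15), the heme-binding protein gene Hebp1 (0.15) and the calcium channel gene Cacna1c (0.20), and nearest to Apol10b were Uba7 (0.17), the calcium pump gene Atp2b4 (0.18) and Ranbp10 (0.21). Uba7 encodes the enzyme that activates ISG15, an interferon-induced ubiquitin-like protein, and went from 45.0 ± 1.67 to 82.8 ± 8.84 and 216 ± 17.3 CPM.

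Markers of other cell types that express Apol genes were checked beside these results. The 7 dendritic cell markers summed to 2.23 and 2.34 CPM on day 0, 4.02 and 4.01 on day 2, and 6.87 and 6.59 on day 4, so the sum moved with the Apol rise. It was carried by Zbtb46, with 48 and 63 counts on day 0 and 239 and 283 on day 4, while Siglech and H2-Ab1 were at 0 and Itgax went from 20 and 24 counts on day 0 to 0 on day 4. Cd74 went from 22 and 28 counts on day 0 to 9 and 14 on day 4, and Flt3 and Xcr1 had at most 1 count in a library. The part of such cells in the Apol rise was not tested. The 10 macrophage and monocyte markers went down, from 7.53 and 6.97 CPM on day 0 to 2.96 and 2.43 on day 4, with Mpeg1 and C1qa at 0. The 7 lymphocyte markers summed to at most 0.221 CPM in any library.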

How the data were processed

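Counts of 6 MEL cell libraries (TruSeq stranded, poly(A)-selected) were analysed as deposited. The authors trimmed adapters with cutadapt, aligned reads to mm10 by TopHat and deposited unnormalized counts for each RefSeq transcript, with HTSeq named in the processing notes and its settings not given in the sources used here. Reads assigned to no transcript (50.5% to 58.4% of those tallied) were left out of the library sizes, and where they lie was not examined.

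Symbols came from the RefSeq table (32199 transcripts) and GENCODE (187), and 268 of 32654 transcripts had none. Transcripts with at least 10 counts (0.225 CPM) in 2 libraries and 15 in total were kept by filterByExpr, TMM factors (0.921 to 1.07) were applied, and day means were fitted to all 6 libraries by edgeR 4.0.16 in R 4.3.3 with the quasi-likelihood test. Benjamini-Hochberg adjustment covered all 18351 tested transcripts, with calls at 0.05. Each SE is the size of the log2 change divided by the square root of the F statistic of its test. For Apol10a and Apol10b against day 0 it is narrower than the counting intervals and understates the counting error. CPM used TMM-scaled library sizes. The fit was tested on simulated data. DESeq2 1.42.0, other scalings and omitted libraries were alternatives. Sequences were RefSeq promoters and GENCODE transcripts of GRCm38. The members and gene lists were chosen with earlier results of these data known. Named were all Apol genes, neighbours by position (up to 5 called), the 3 nearest profiles per member, and up to 2 rises and 2 falls per list among called genes whose log2 CPM averaged 1 or more.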

Additional observations from a re-analysis of the deposited data

Results flagged for a closer look

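The changes of 4 genes over the second step differed from those over the first by the test of the difference itself (edgeR adjusted over all transcripts). The second log2 change minus the first was -5.03 for Apol10a, -3.50 for Apol11a, -3.68 for Apol11b and -3.77 for Apol8. For Apol8 a rise was followed by a fall, and for the other genes a rise was followed by one that was smaller as a log2 ratio, though not in CPM. The Apol10a value rests on 2 counts in all on day 0. Apol10a, Apol11a and Apol11b share part of their sequence, so their values are not independent results.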

How the results depend on the processing

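Of 192 log2 changes of members recomputed under the alternatives, 188 kept their direction and their side of the threshold, and of 66 counts of called members 61 equalled the reported one. The number of members called higher from day 2 to day 4 was 3 in place of 4 without either day 2 replicate, without day 4 replicate 2 and by DESeq2. When libraries of the compared days were left out in turn, the number of members called lower from day 2 to day 4 ranged from 0 to 1 (0 without day 2 replicate 2), and the lone library of a day was then assumed to vary like the other days. The call of Apol10b over that step was lost without day 2 replicate 1 (2.01), without day 2 replicate 2 (2.03) and without day 4 replicate 2 (1.75), and DESeq2 gave it no adjusted p there. Apol11b exceeded Apol8 on day 4 by 50.9 times per kilobase and by 38.9 times without division by length, as the length ratio sets. Without a scaling factor the median of all transcripts moved by 0.20, -0.08 and 0.11 (log2) over day 2 against day 0, day 4 against day 2 and day 4 against day 0, and that of the second change minus the first by -0.28. The fitted Apol10a change from day 0 to day 4 ranged from 7.60 to 11.81. Adding the replicate number to the fit as a replicate block changed no call of a member (Apol11b 7.52 on day 4 against day 0). The differences of replicate 2 from replicate 1 in log2 CPM correlated between days by 0.032, 0.045 and 0.079 over 18351 transcripts. These low values show no sign that the numbers pair the samples, but they do not exclude it. A second transcript with other counts was listed for no member, so that alternative was not run. Depth limits the not detected members, where 3 counts are at most 0.0831 CPM.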

Other observations

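Of 19 tested BCL2 family genes, regulators of mitochondrial cell death, 9 were higher and 6 lower on day 4 than on day 0 by edgeR, beside 35.5% and 36.4% of all genes (median log2 change 0.27 against -0.02). The BH3-only genes Bcl2l11 and Bmf rose from 10.6 ± 0.726 to 78.2 ± 11.1 CPM and from 1.44 ± 0.215 to 9.07 ± 2.01 CPM, while Bnip3 went from 98.3 ± 83.0 to 9.75 ± 0.116 and Bax from 96.2 ± 27.3 to 38.2 ± 0.921 CPM (SD, n = 2). Of a list of 19 genes of other apolipoproteins, which also holds the apolipoprotein B receptor gene Apobr, 5 were tested and 3 fell, beside 36.4% of all genes. These were Apoa1, the main protein of high-density lipoprotein, from 8.45 ± 3.56 to 0.335 ± 0.192 CPM, Apoe, a ligand of lipoprotein receptors, from 19.9 ± 0.374 to 9.91 ± 0.0214 CPM, and Apobr, from 14.9 ± 6.54 to 6.53 ± 0.490 CPM. Apoe was named after its values were seen, to complete the 3. Of 9 tested genes of high-density lipoprotein and cholesterol efflux, 3 were higher and 3 lower, shares close to those of all genes (35.5% and 36.4%), with Pltp rising from 6.70 ± 1.33 to 21.1 ± 1.10 CPM and Lrp1 falling from 10.8 ± 0.682 to 2.83 ± 0.433 CPM.

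Among the 338 tested genes outside the family whose promoter held the ISRE letters, 32.5% were higher and 39.9% lower on day 4 than on day 0, beside 35.4% and 37.0% of the 9680 tested genes with a promoter. For the GATA letters the shares were 35.3% and 37.9% of 2161 genes.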
